A study of Mus musculus with 6 samples.

Results

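The ETS family of transcription factors was followed in mouse pre-B leukaemia cells through 10 of its genes: Spib, Spi1, Erg, Ets1, Ets2, Fli1, Elf1, Etv6, Gabpa and Elk3. They were listed by name, but with earlier results of these data known. All 10 were measured, each by 1 probe set, among 19938 genes represented by 1 probe set each. The cells were C57Bl/6 pre-B cells transformed with BCR-ABL1, a fusion kinase that drives acute lymphoblastic leukaemia, and every sample carried the genotype Bcor fl/Y, a floxed Bcor on the single X chromosome of a male. One group of 3 arrays had been transduced with PMIP-CRE-ERT2, a vector for a Cre recombinase that tamoxifen activates, and the other group of 3 with PMIP-ERT2, which lacks Cre. Both groups were exposed to 4OH-Tamoxifen at 0.5 micromolar for 2 days and were selected with puromycin. Drug, selection and floxed allele were thus shared and the groups differed in Cre. No group carried Cre without the floxed Bcor, so effects of Cre itself and of Bcor loss cannot be told apart. Nothing in the labels ties the arrays to separate cultures, animals or clones, so every p-value measures the spread between these arrays, which may be technical.

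ETS factors share a DNA-binding domain that reads a GGAA core, and they differ in partners and in the cells that use them. In the B lineage, PU.1 (encoded by Spi1) and its close relative Spi-B (encoded by Spib) act with interferon regulatory factors on genes of the B cell receptor pathway, and their combined loss is known to cause B cell leukaemia in mice. Erg and Fli1 work in blood stem and progenitor cells, Ets1 in lymphocytes, Gabpa on housekeeping genes, and Elk3 beside the serum response factor, while Etv6 is mainly a repressor and is a common fusion partner in childhood leukaemia.

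Bcor, the floxed gene, was lower in every Cre-ERT2 array, at 9.08, 9.22 and 9.18 against 10.07, 10.11 and 10.17 with ERT2 (log2 expression). The deposited values were already on a log2 scale, and a difference is given throughout as Cre-ERT2 minus ERT2 on that scale, with its moderated standard error (SE) from limma and a p-value adjusted over all 19938 genes. The median array value was 8.61 to 8.68, and the 2 groups separated on the first principal component, which held 51.9% of the variance. The summed level of 9 measured pre-B markers, which its brightest probe sets dominate, was 16.03 to 16.05 with ERT2 and 16.05 to 16.07 with Cre-ERT2 (log2), led by the surrogate light chain gene Igll1 (14.20 and 14.25) and the receptor chain gene Cd79b (13.52 and 13.62). Called members of that list were the V(D)J genes Dntt, which rose by 0.86, and Rag1, which fell by 0.38.

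Spib, Erg and Etv6 were called higher in Cre-ERT2 cells and no member was called lower. These 3 of 10 members passed an adjusted p of 0.05, where 7.03% of all genes did (4.05% of all genes were higher and 2.98% lower). At an unadjusted limma p under 0.05 were 6 of 10 members and 23.0% of all genes. The median log2 fold change of the 10 members was 0.11, and over all genes it was -0.04. A positive difference was seen for 8 members, or 9 after cyclic loess, which turned Elk3, against 31.8% of all genes (43.9% after cyclic loess). The median ERT2 level was 11.3 for the members and 8.86 for all genes. The shares of all genes given here and below were not matched for level. In bulk RNA a change in the share of cells that use a gene and a change in RNA per cell cannot be told apart.

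**Figure D1:**
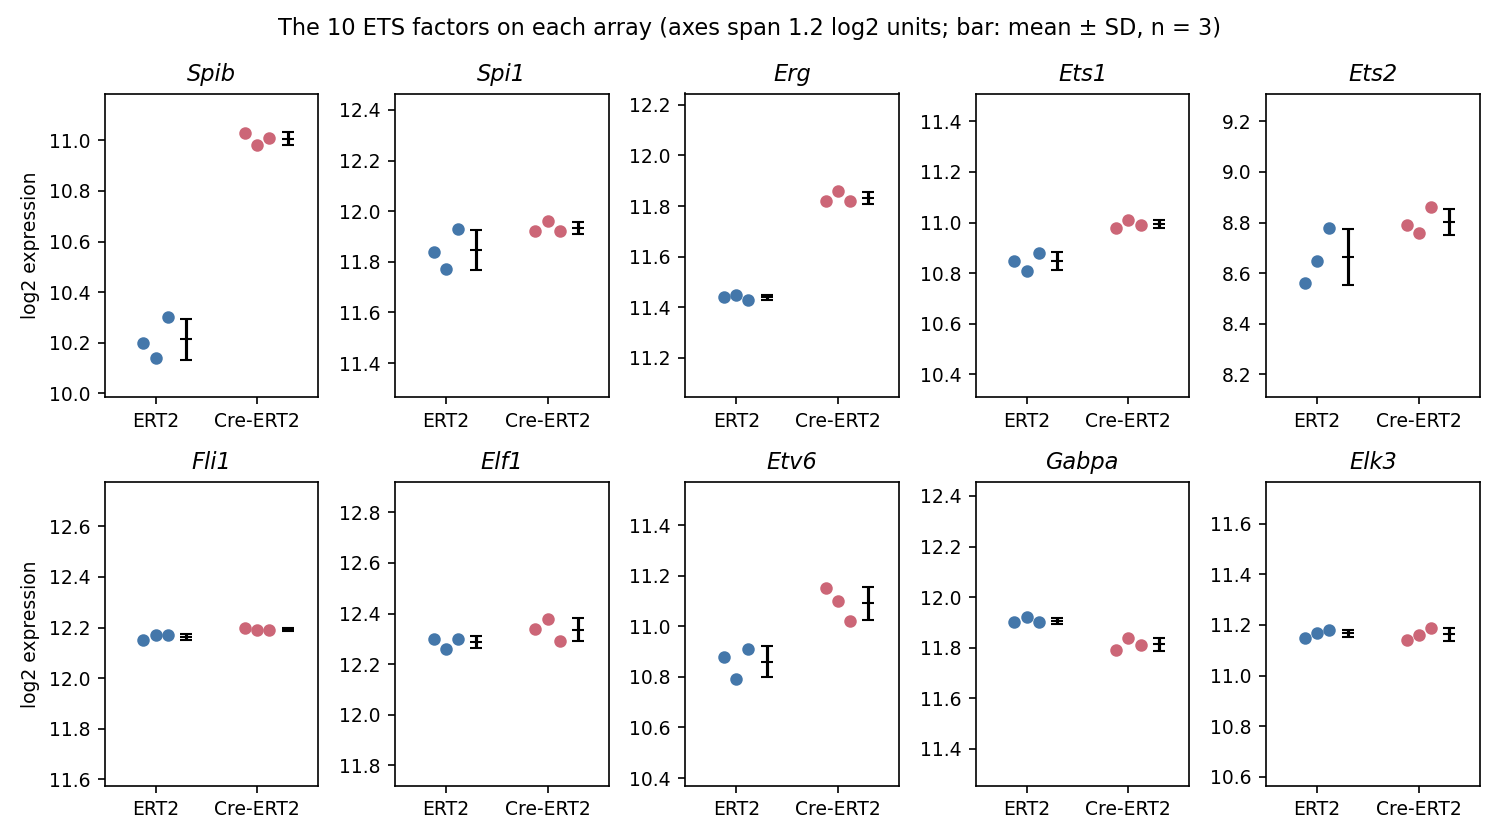
Log2 expression of each of the 10 ETS factors on the 3 ERT2 arrays (blue) and the 3 Cre-ERT2 arrays (red), with the mean and SD of each group beside the points and every axis spanning the same range. Spib stands apart between groups by the widest gap, from 10.30 at the top of ERT2 to 10.98 at the bottom of Cre-ERT2, and Elk3 overlaps.

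To show the DNA around the genes that rose, the reference promoter windows of Spib, Erg and Etv6 follow, with that of Gabpa for contrast because its difference was negative. Each runs 5′ to 3′ on the gene's strand from 250 bases before to 50 bases after an annotated start (RefSeq, GRCm38.p6), and capitals mark GGAA or, where the core lies on the opposite strand, TTCC. The Spib window is chr7:44532022-44532321 (minus strand), the Erg window shown is the middle one of its 3 annotated starts, chr16:95530316-95530615 (minus strand), the Etv6 window is chr6:134035450-134035749 (plus strand) and the Gabpa window is chr16:84834874-84835173 (plus strand).
Spib: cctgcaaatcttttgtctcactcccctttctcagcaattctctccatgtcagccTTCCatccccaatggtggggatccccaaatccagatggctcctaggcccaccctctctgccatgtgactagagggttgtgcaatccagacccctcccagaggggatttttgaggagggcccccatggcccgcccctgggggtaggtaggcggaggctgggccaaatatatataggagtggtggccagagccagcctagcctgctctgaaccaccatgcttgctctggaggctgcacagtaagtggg
Erg: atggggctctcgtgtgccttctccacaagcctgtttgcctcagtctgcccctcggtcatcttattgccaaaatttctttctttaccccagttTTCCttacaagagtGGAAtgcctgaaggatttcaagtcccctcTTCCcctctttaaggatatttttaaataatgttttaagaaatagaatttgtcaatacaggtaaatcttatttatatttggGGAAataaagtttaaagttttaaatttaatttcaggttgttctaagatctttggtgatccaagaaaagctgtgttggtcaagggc
Etv6: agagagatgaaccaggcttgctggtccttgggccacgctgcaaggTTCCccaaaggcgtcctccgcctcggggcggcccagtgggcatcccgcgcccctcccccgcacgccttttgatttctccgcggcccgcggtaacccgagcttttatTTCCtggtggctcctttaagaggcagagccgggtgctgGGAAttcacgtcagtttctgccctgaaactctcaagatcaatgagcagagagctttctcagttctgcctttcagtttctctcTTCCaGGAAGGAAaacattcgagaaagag
Gabpa: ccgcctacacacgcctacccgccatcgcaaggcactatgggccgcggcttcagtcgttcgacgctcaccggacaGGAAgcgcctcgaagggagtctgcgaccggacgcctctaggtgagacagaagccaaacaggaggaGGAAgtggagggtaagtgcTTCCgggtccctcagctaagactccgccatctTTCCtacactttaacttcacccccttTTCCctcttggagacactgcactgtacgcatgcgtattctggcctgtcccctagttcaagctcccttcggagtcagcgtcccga

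Spib has 1 core match in this window, on the opposite strand at -196 to -193 from the start. Etv6 has 6 matches and the Erg window shown has 4, while the other Erg starts have 1 and 2. Gabpa has 5. Among all 32851 promoter windows of the same length, 96.0% hold at least 1 match on either strand, with a median of 3, so a match is common. The longer PU.1-type word GAGGAAGT (ACTTCCTC on the opposite strand) occurs in 3.20% of all windows and, among the 10 windows found for 7 members, only in that of Gabpa, at -113 to -106, where it overlaps a core match. The word CCGGAAGT (ACTTCCGG on the opposite strand), typical of Gabpa and Ets1, occurs in 3.89% of all windows and in 0 of these 10, which says only that these letters are not there. The table had no entry for Spi1, Ets1 and Fli1. The arrays measure RNA and not binding, so a match is a description of the sequence.

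Among the B-lineage pair, Spib was at 10.20, 10.14 and 10.30 in the ERT2 arrays and at 11.03, 10.98 and 11.01 in the Cre-ERT2 arrays. Every Cre-ERT2 array was above every ERT2 array. The mean went from 10.22 ± 0.0792 to 11.01 ± 0.0267 (SD, n = 3 each), a rise of 0.79 (SE 0.0478, limma adjusted p = 3.82e-05), or 1.73-fold, which placed Spib 44th by size among the 808 genes that rose. Spi1, which encodes PU.1, was at 11.84, 11.77 and 11.93 with ERT2 and at 11.92, 11.96 and 11.92 with Cre-ERT2. Its groups overlapped, since the highest ERT2 array lay above 2 Cre-ERT2 arrays, and its difference of 0.08 (SE 0.0476, adjusted p = 0.328) had a 95% interval of -0.02 to 0.19.

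Within arrays, the log2 value of Spib minus that of Spi1 shifted by 0.71 between groups, with an SD of 0.00572 among the ERT2 arrays and 0.0510 among the Cre-ERT2 arrays. The groups did not overlap, and the two-sided exact permutation test gave p = 0.10, the smallest that 3 arrays against 3 allow (0.15 adjusted over the 3 related pairs compared). In the ERT2 group Spib and Spi1 were both lowest in replicate 2 and highest in replicate 3, as were Ets1 and Etv6. Of all genes, 43.1% were lowest in replicate 2 and 48.0% highest in replicate 3.

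Of the factors of blood stem and progenitor cells, Erg was at 11.44, 11.45 and 11.43 with ERT2 and at 11.82, 11.86 and 11.82 with Cre-ERT2. The arrays within each group lay close together and the groups were far apart for that spread. The mean rose by 0.40, from 11.44 ± 0.00873 to 11.84 ± 0.0219 (SD, n = 3 each; SE 0.0359, limma adjusted p = 0.000333), a 1.32-fold change, the 229th by size among genes that rose. Fli1, the nearest relative of Erg, was at 12.15, 12.17 and 12.17 with ERT2 and at 12.20, 12.19 and 12.19 with Cre-ERT2. Its groups were apart as well, but by so little that the difference was 0.03 (SE 0.0351, adjusted p = 0.656; 95% interval -0.05 to 0.11). Erg minus Fli1 shifted by 0.37 with no overlap between groups (exact permutation p = 0.10, the smallest possible; 0.15 adjusted over the 3 pairs).

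Etv6, the repressor, was at 10.88, 10.79 and 10.91 with ERT2 and at 11.15, 11.10 and 11.02 with Cre-ERT2. All Cre-ERT2 arrays were above the ERT2 arrays, with Cre-ERT2 replicate 3 nearest to them. The mean rose by 0.23, from 10.86 ± 0.0629 to 11.09 ± 0.0674 (SD, n = 3 each; SE 0.0502, limma adjusted p = 0.0298), or 1.17-fold, the 598th by size. This call was the least secure of the 3. Leaving out replicate 1 or 2 of either group ended it (adjusted p up to 0.109), as did median centring of the arrays (0.0700), while the calls of Spib and Erg held in every alternative run.

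Ets1, a lymphoid factor, was at 10.85, 10.81 and 10.88 with ERT2 and at 10.98, 11.01 and 10.99 with Cre-ERT2. The groups did not overlap. The difference of 0.14 (SE 0.0380, 95% interval 0.06 to 0.23) did not pass, at an adjusted p of 0.0605. It did pass with an intensity trend (0.0330), after cyclic loess (0.0311), with array weights (0.0160) and without the dimmest 30% of genes (0.0301). Ets2, its relative, was at 8.56, 8.65 and 8.78 with ERT2 and at 8.79, 8.76 and 8.86 with Cre-ERT2. The groups overlapped, and ERT2 replicate 3 lay above one Cre-ERT2 array. The difference was also 0.14, but with a wider error (SE 0.0597, 95% interval 0.004 to 0.28, adjusted p = 0.205). Ets1 minus Ets2 shifted by 0.003 (exact permutation p = 1, n = 3 arrays each), and its SD was 0.101 among ERT2 and 0.0629 among Cre-ERT2 arrays, so a small difference in either direction was not resolved.

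**Figure D2:**
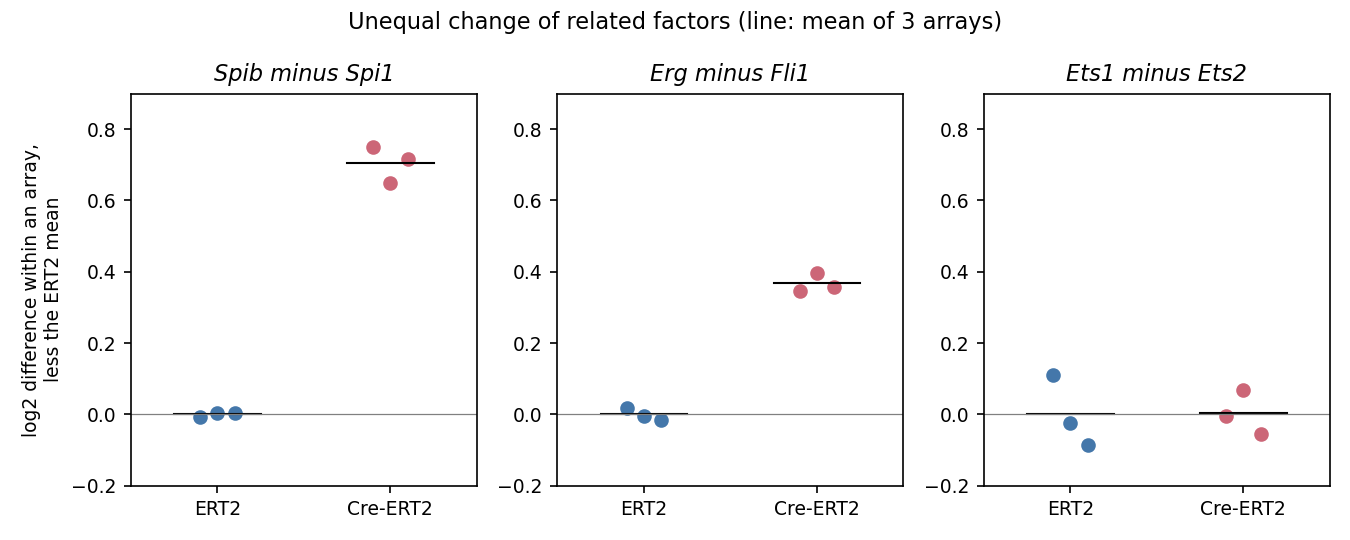
The log2 value of 1 factor minus that of its relative on each array, less the mean of the ERT2 arrays, for Spib and Spi1, Erg and Fli1, and Ets1 and Ets2; lines are means of 3 arrays. The Cre-ERT2 arrays are shifted by 0.71 for the first pair, by 0.37 for the next and by 0.003 for the last.

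The other 3 members, Gabpa, Elf1 and Elk3, did not pass the test. Gabpa, the DNA-binding chain of GABP, was at 11.90, 11.92 and 11.90 with ERT2 and at 11.79, 11.84 and 11.81 with Cre-ERT2. It was the one member with every Cre-ERT2 array below the ERT2 arrays. Its difference of -0.10 (SE 0.0358, 95% interval -0.18 to -0.01) did not pass after adjustment (adjusted p = 0.157). Elf1, which activates lymphoid and myeloid genes, was at 12.30, 12.26 and 12.30 with ERT2 and at 12.34, 12.38 and 12.29 with Cre-ERT2, a difference of 0.05 with overlapping groups (95% interval -0.04 to 0.14, adjusted p = 0.493). Elk3 was at 11.15, 11.17 and 11.18 with ERT2 and at 11.14, 11.16 and 11.19 with Cre-ERT2. Its difference of -0.008 (95% interval -0.09 to 0.08, adjusted p = 0.919) is near 0 in either direction. The groups did not overlap for 6 of 10 members, where they did not for 29.9% of all genes. Of these members 5 were higher and 1 was lower with Cre-ERT2, and of all genes 9.56% were apart with Cre-ERT2 higher and 20.3% with Cre-ERT2 lower.

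No other ETS gene passed this threshold. Of 16 other ETS genes, 15 were measured, and limma called 0 of them, with 5 at an unadjusted p under 0.05, as were 4590 of all 19938 genes (23.0%). Those 5 were the epithelial factors Ehf (-0.20, adjusted p = 0.0928) and Elf3 (-0.18, 0.161), Etv4 (-0.15, 0.0532) and Etv1 (-0.11, 0.181) of the PEA3 group, and the repressor Etv3 (0.10, 0.199). They were named after their values were seen. The median of the 15 was -0.04, that of all genes also rounds to -0.04, and 5 had a positive difference (6 after cyclic loess). The count was not fixed: with array weights 4 passed (Ehf, Elf3 and Etv4 lower, Etv3 higher), without Cre-ERT2 replicate 3 Ehf and Elf3 passed, and without the dimmest 30% of genes Etv4 passed. Of all genes tested in each run, 3339, 1341 and 1750 passed in that order, and 1402 did in the main run. Ehf (7.36 with ERT2 and 7.17 with Cre-ERT2) and Elf3 (8.50 and 8.33) lay below the array medians of 8.61 to 8.68. Whether the members and the other ETS genes differ in their response was not tested.

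**Figure D3:**
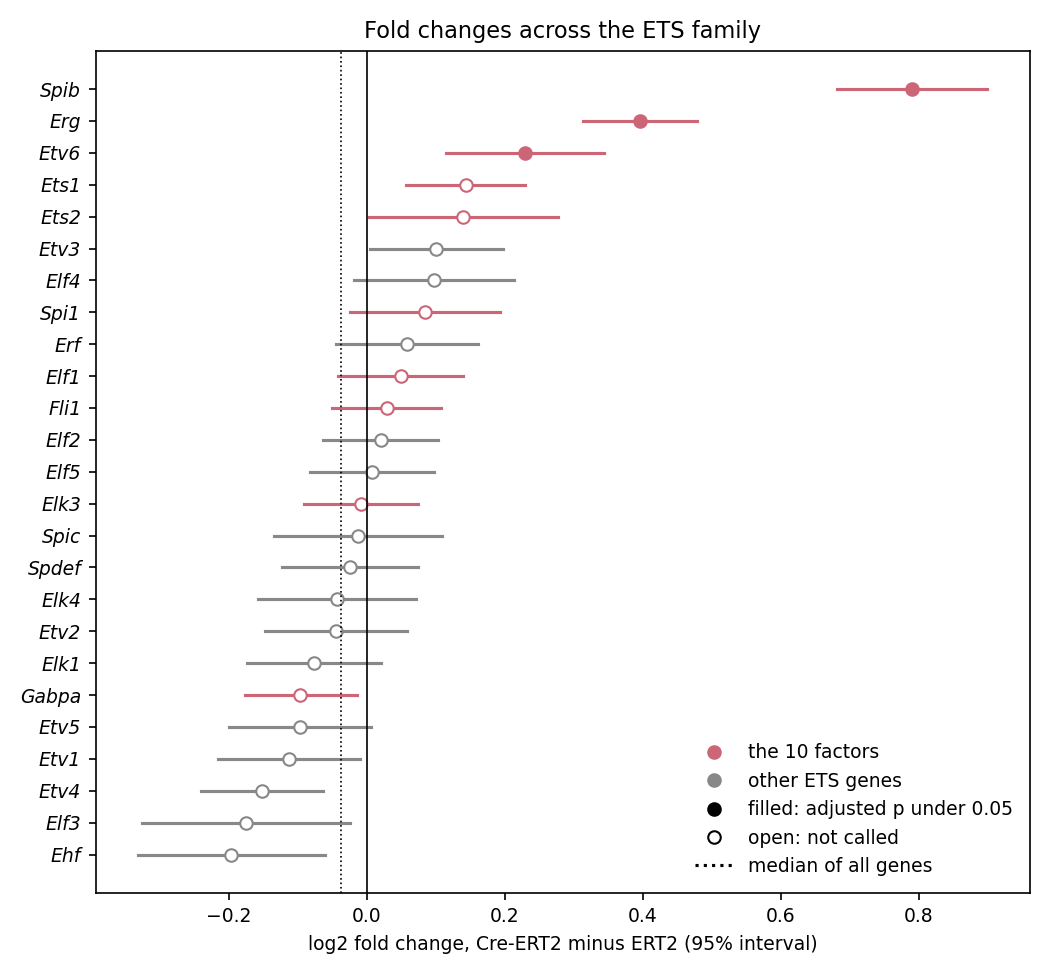
Log2 fold change with its 95% interval for the 25 measured ETS genes, ordered by size; red marks the 10 factors, grey the other family genes, filled points an adjusted p under 0.05, and the dotted line the median of all genes. Spib, Erg and Etv6 are the filled points, at 0.79, 0.40 and 0.23, and the lowest is Ehf at -0.20.

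Genes known to be bound or regulated by PU.1 or Spi-B in B-lineage cells moved in both directions. Of 24 measured, 2 rose, 4 fell and 18 did not pass, with a median log2 fold change of 0.001. Over all genes, 4.05% rose and 2.98% fell. An unadjusted limma p under 0.05 was reached by 11 of the 24 and by 23.0% of all genes. The lysophospholipid receptor gene P2ry10 fell by 0.72 (SE 0.0650, limma adjusted p = 0.000322) and the interleukin 7 receptor chain Il7r by 0.60 (SE 0.0372, adjusted p = 4.54e-05). Ms4a1, which encodes CD20, fell by 0.59 (SE 0.0418) and the complement receptor gene Cr2 by 0.19 (SE 0.0378). Both were dim, below the array medians of 8.61 to 8.68. Ms4a1 was at 7.96 with ERT2 and 7.37 with Cre-ERT2, and Cr2 at 7.76 and 7.57. The inhibitory receptor gene Cd22 rose by 0.27 (SE 0.0441, adjusted p = 0.00707) and Cd40, a receptor for T cell help, by 0.19 (SE 0.0456). Core signalling genes of the list did not pass: the kinase genes Btk (-0.09) and Syk (-0.04) and the adaptor gene Blnk (0.08) had adjusted p between 0.234 and 0.633. The Cd40 call was lost whichever array was removed (up to an adjusted p of 0.139). The Cr2 call was kept only when the removed array was Cre-ERT2 replicate 3 (0.0846 at most otherwise).

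Of 12 factors that pair with or oppose PU.1 and Spi-B, only the AP-1 subunit Jun passed, with a rise of 0.31 (SE 0.0370, limma adjusted p = 0.00167). The share of all genes that passed, 7.03%, applies to this list and the next. The interferon regulatory factors did not pass: Irf4 was at 0.11 (adjusted p = 0.132) and Irf8 at -0.05 (0.536). The list's median was -0.002. Of 8 factors that bind with Erg and Fli1 in blood stem cells, the bridging protein gene Lmo2 rose by 0.72 (SE 0.0442, adjusted p = 4.13e-05) and the repressor gene Gfi1b fell by 0.43 (SE 0.0407, adjusted p = 0.000424), and the other members lay between -0.06 and 0.07, with a median of -0.03 for the list. Lmo2 was at 11.03 ± 0.0364 with ERT2 and 11.75 ± 0.0595 with Cre-ERT2, and Gfi1b at 11.91 ± 0.0486 and 11.48 ± 0.0242 (SD, n = 3 each).

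Cofactors of the remaining members were called in 0 of 8 measured genes by limma, with 0 at an unadjusted p under 0.05. The shares over all genes were 7.03% and 23.0%. The median was -0.06, the beta chains Gabpb1 and Gabpb2 that pair with Gabpa were at 0.06 and -0.05, and the smallest p belonged to the corepressor Sin3a (-0.08, adjusted p = 0.267) and the repressor L3mbtl1 (-0.08, 0.267). Of 11 immediate early genes driven through Srf and the Elk factors, Fosb rose by 0.20 (SE 0.0422) and Egr1 fell by 0.25 (SE 0.0512), with a median of 0.02. The others of that list did not pass, where 7.03% of all genes did. Removing 1 array ended the Fosb call unless it was Cre-ERT2 replicate 3 (0.0985 at most), and the Egr1 call unless it was ERT2 replicate 2 or Cre-ERT2 replicate 3 (0.0892 at most). Fosb was also lost with quantile normalization (adjusted p = 0.0956) and median centring (0.0645).

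**Figure D4:**
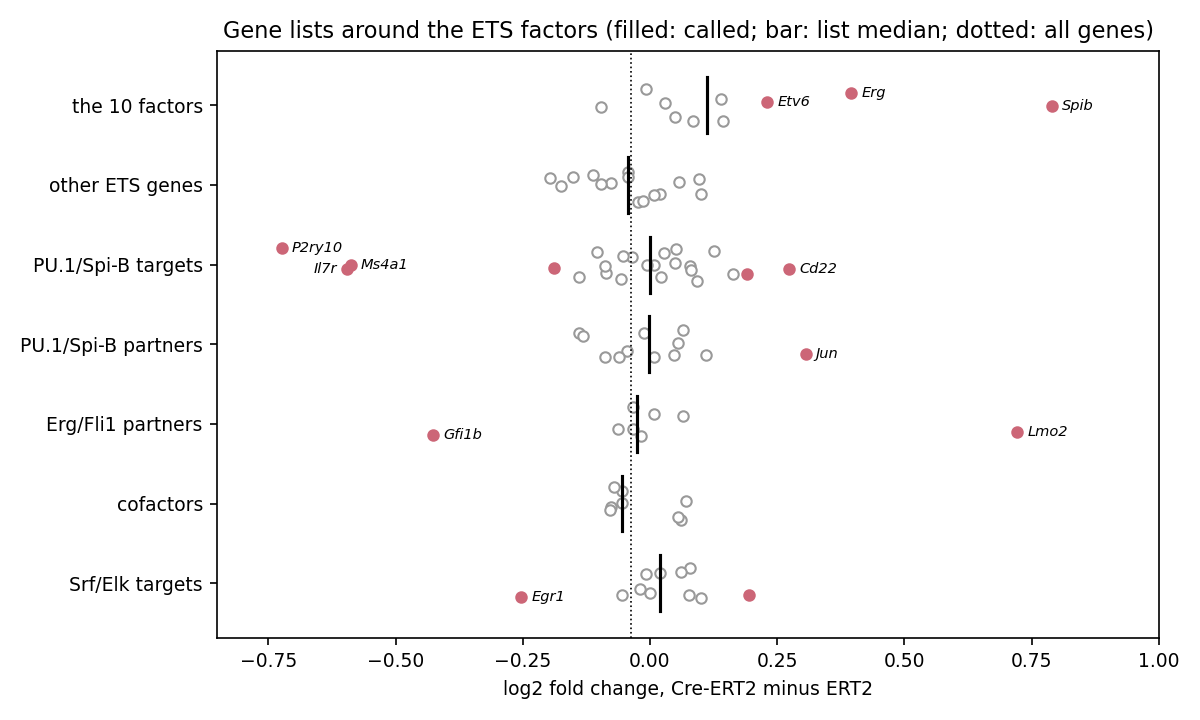
Log2 fold change of each measured gene in the ETS lists, with filled points for genes called at an adjusted p under 0.05, a bar at each list's median and a dotted line at the median of all genes. Called genes of the PU.1 and Spi-B target list lie on both sides of 0, from P2ry10 at -0.72 to Cd22 at 0.27, and Lmo2 and Gfi1b lie on opposite sides.

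Since several ETS factors also mark other blood cells, markers of those cells were set beside the rises. The summed level of 10 myeloid markers was 11.70 to 11.75 with ERT2 and 11.82 to 11.84 with Cre-ERT2 (log2). Lyz2, the brightest of them (9.76 with ERT2 and 10.21 with Cre-ERT2), weighs most in that sum. Only Lyz2 was called, with a rise of 0.45 (limma adjusted p = 0.00488), where 7.03% of all genes passed. A positive difference was seen for 4 of the 10, for 5 after quantile normalization and for 6 after cyclic loess. Over all genes these shares were 31.8%, 30.6% and 43.9%. The list's median was -0.02. Cd68 was at 0.06 (0.409), and the myeloid receptor genes Csf1r (-0.10) and Itgam (0.06) did not pass. For 6 markers of plasmacytoid dendritic cells, which depend on Spi-B, the sum was 12.29 to 12.33 and 12.38 to 12.48, and 0 were called by limma (3 at an unadjusted p under 0.05, where 23.0% of all genes were). Those 3 were Tcf4, which pre-B cells also express, at 0.17 (adjusted p = 0.0721), Irf7 at 0.11 and, lower, the chemokine receptor gene Ccr9 at -0.17. The sum follows mainly its brightest gene, Tcf4 (11.73 with ERT2 and 11.90 with Cre-ERT2). Bst2 was at 0.02 and the defining marker Siglech at -0.01. The part of these markers in the rises of Spib, Erg and Etv6 was not tested, and no marker can be called absent because detection limits are unknown here.

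The other marker lists covered NK, T, erythroid, megakaryocyte, endothelial and stromal cells. The sum of 6 NK cell markers was 10.08 to 10.11 with ERT2 and 9.97 to 10.06 with Cre-ERT2. Of these 6, 1 had a positive difference, as did 0 of 7 T cell markers and 31.8% of all genes. An unadjusted limma p under 0.05 was reached by 3 of the 6. Ncr1, dim at 7.01 with ERT2 and 6.78 with Cre-ERT2, fell by 0.23, where 7.03% of all genes passed. The leading genes Prf1 (-0.07) and Klrb1c (0.11) did not pass. The Ncr1 call, the only one in that list, was lost without Cre-ERT2 replicate 1 (adjusted p = 0.0529). For 7 T cell markers the sums were 10.90 to 11.01 and 10.84 to 10.91, for 7 erythroid and megakaryocyte markers 11.18 to 11.20 and 11.16 to 11.22, and for 7 endothelial and stromal markers 11.93 to 11.99 and 11.98 to 11.99. In these 3 lists limma called 0 genes, with 2, 0 and 2 at an unadjusted p under 0.05, against 23.0% of all genes. Their leading genes were Bcl11b (-0.10) and Cd3e (-0.02), Itga2b (-0.04) and Gp9 (0.05), and Pecam1 (0.13) and Col1a1 (-0.08).

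The genes whose values most resembled those of Spib over the 6 arrays, among 595 genes that ranged over at least 0.5, were the lymphotoxin genes Ltb (Pearson r = 0.998, a rise of 0.86) and Lta (0.998, 0.52), the nucleoside transporter gene Slc29a3 (0.998, 0.48), the GDNF co-receptor gene Gfra1 (0.998, 0.83) and the DNase gene Dnase1l3 (0.998, 0.61). For Erg they were the fatty acid receptor gene Ffar2 (0.9995, 1.22), the lysosomal membrane gene Laptm5 (0.999, 0.50), the Rac regulator Chn2 (0.999, 1.08), 9030619P08Rik (0.998, 1.31) and the calmodulin-binding gene Pcp4 (0.998, 0.84). All 10 rose. These coefficients follow mainly from the difference between the groups that the points share, and they are given as a description.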

How the data were processed

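Total RNA of 6 samples was hybridised to Affymetrix arrays, and the values analysed were log2 expression values per probe set, as deposited by the authors. The submitters' processing notes name RMA and Partek 6.5 without saying what each did. The genome build is not given in the sources used here. Array values of this kind are known to understate fold changes. Of 35556 probe sets, 21789 had 1 gene symbol in the platform annotation, and the probe set of highest mean stood for each of 19938 genes. Cre-ERT2 and ERT2 arrays (n = 3 each) were compared in R 4.3.3 with limma 3.58.1 (lmFit, eBayes, Benjamini-Hochberg over all genes, threshold 0.05); 3 related pairs were compared by exact permutation. Precision is limited by the number of arrays, and the median SE was 0.0477. On data simulated for 19938 genes with independent noise, 67, 67 and 66 genes were changed by 0.25, 0.5 and 1 on the log2 scale. The fit recovered 40.3%, 80.6% and 100% of them. Far more genes, 1402, were called in the measured data, so these shares need not hold there. Named genes were all members, up to 6 called genes of each list by size (or the 2 of smallest p), and the 2 brightest and all called markers; Btk, Syk, Blnk, Irf4, Irf8, Gabpb1, Gabpb2, Csf1r, Itgam, Irf7, Ccr9 and Siglech were added after their values were seen. Members and lists were chosen with earlier results of these data known. Alternatives were a replicate block, an intensity trend, array weights, 3 other scalings, a filter on dim genes, other uses of probe sets, other thresholds and each array left out. Promoter sequences were read from RefSeq (GRCm38.p6). Plots used Python 3.11.15, pandas 2.3.3 and matplotlib 3.10.9.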

Additional observations from a re-analysis of the deposited data

How the results depend on the processing

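Spib and Erg kept their direction and call in every alternative (0.75 to 0.83 and 0.38 to 0.41; adjusted p up to 0.00188 and 0.0243). For Etv6 the call was lost with the replicate number as a block (0.23, adjusted p = 0.0812), with median centring (0.229, adjusted p = 0.0700) and with treat against 0.2 (0.23, adjusted p = 1), and its values ranged from 0.194 to 0.266 with an array left out. Ets1 was called with an intensity trend (0.144), array weights (0.149), cyclic loess (0.160), the dim genes left out (0.144) and at an adjusted p of 0.1 (0.144), but with no array left out (0.125 to 0.160). Ets2 was called with array weights (0.175). Elk3 turned to 0.009 after cyclic loess and lay between -0.02 and 0.004 with an array left out, and Ets1 minus Ets2 lay between -0.04 and 0.058. Array weights called 5 members, and 2 to 3 were called with an array left out. Of the other ETS genes, 4 were called with array weights, 1 without dim genes, 2 at an adjusted p of 0.1 and 0 to 2 with an array left out. Over all genes 1402 were called; the count was 805 with the replicate block, 3339 with array weights, 2271 at an adjusted p of 0.1, 222 with treat, and 743 to 1341 with an array left out. The cause of these shifts was not tested. Of all called genes 57.6% were higher, against 67.9% after cyclic loess, 67.8% with the replicate block, 77.9% with treat, 47.6% at an adjusted p of 0.1, 39.4% with array weights and 53.2% to 71.2% with an array left out. The labels do not say whether same-numbered arrays were prepared together. Deviations of same-numbered arrays correlated at 0.0506, -0.0946 and -0.260, and those of differently numbered arrays at -0.293 to 0.311. Deviations from means of 3 arrays cannot settle whether the numbers mark pairs. Of the listed genes the block also ended the calls of Cd40, Cr2 and Fosb. The median log2 fold change of all genes was -0.037 in the main run and -0.011 after cyclic loess. It was -0.040 after quantile normalization and -0.038 after median centring.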

Other observations

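Among the 10 members, 4 form neighbouring pairs on the chromosomes: Erg and Ets2 lie next to each other on chromosome 16 and Ets1 and Fli1 on chromosome 9, with 0 protein-coding genes between them in the GRCm38.p6 gene table. Within the first pair Erg rose by 0.40 and Ets2 was at 0.14 (adjusted p = 0.205), and within the other Ets1 was at 0.14 and Fli1 at 0.03. On the other side of Erg, the potassium channel gene Kcnj15 was at 0.12 (adjusted p = 0.201). Of the measured genes beside Spib, the aspartic protease gene Napsa rose by 0.34 (SE 0.0471, limma adjusted p = 0.00332), the DNA polymerase delta gene Pold1, nearer to Spib, fell by 0.19 (SE 0.0407, adjusted p = 0.0282), and on the other side Mybpc2 was at 0.07 and Fam71e1 at -0.07. Of the neighbours of Etv6, Kap fell by 0.23 (adjusted p = 0.0495) and Bcl2l14 was at 0.07. Kap was dim, at 7.26 with ERT2 and 7.03 with Cre-ERT2. Near Elf1, itself not called, Kbtbd6 fell by 0.17 (SE 0.0365, limma adjusted p = 0.0269). Over all genes 7.03% passed. The neighbours were looked up by position after the members' values were seen.

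Within the ERT2 group, replicate 3 held the highest value for 6 of 10 members, against 48.0% of all genes, and replicate 2 the lowest for 5 of 10, against 43.1% of all genes.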
